A study of Mus musculus with 4 samples.

Results

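Neurons of the inner retina store peptide transmitters in dense-core granules, and the 10 genes described here encode granule proteins or the precursors of those peptides. They are Vgf, Scg2, Scg3, Chga and Chgb, which belong to the granins, and Penk, Tac1, Vip, Npy and Sst, which encode neuropeptide precursors. They were picked by gene name from 22863 genes in the deposited table, and the choice was made with their values in objective and subjective day already known. These 10 were thus chosen from the same contrast that is described below, so their values are given as a description, and calls among them are only counted beside the share of all genes called.

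The granins are acidic proteins that aggregate in the trans-Golgi network, help to form dense-core granules and are themselves cut into peptides. Neuropeptide precursors enter the same granules, where prohormone convertases cut them at pairs of basic residues before release on calcium entry. In the mouse retina these peptides are known mainly from amacrine and ganglion cells, and Vgf is known in other neurons as a gene whose transcription rises with electrical activity and neurotrophins.

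Eyes came from C3H/f+/+ mice, a strain that makes melatonin and lacks the Pde6b rd mutation of other C3H mice. All mice had been entrained to a light-dark cycle. Subjective day (SD) mice were then kept in darkness and were taken at CT 6. Their darkness lasted 18 hours by the Methods and longer by another passage. Objective day (OD) mice were kept on the cycle and dark-adapted for 1 hour before they were taken at ZT 6. The conditions therefore shared the clock phase and differed in the light seen that day, and the comparison asks which transcripts differ with that light history. Each of the 2 samples per condition pooled 4 eyes of a female and a male mouse. Each p-value and SE given below thus rests on the spread between such pools and not between single mice. Both are moderated, since limma draws the variance of each gene towards a trend with mean expression fitted over all tested genes. The age of these mice was not given beyond their being age-matched. The tissue was the posterior eye with retina, RPE, choroid and sclera, and polyadenylated RNA was sequenced from random hexamers.

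The deposited values are adjusted counts, that is, reads per gene scaled by the authors to libraries of equal size, and they summed to between 33278417 and 35236783 per sample. Such totals say nothing of how deeply a sample was sequenced, and the depth is unknown. The 8 rod photoreceptor markers, which mark retina, summed to between 2036420 and 2556970, and Krt12, which marks corneal epithelium, lay between 1.78 and 12.5. Keratin genes of ocular surface epithelium were nevertheless present, and 4 of 5 tested markers of that tissue were lower in OD, with a summed level of 10560 and 10949 in SD and of 3081 and 5550 in OD. Of the 17784 genes that reached 10 in 2 or more samples, limma called 1.06% higher and 7.45% lower in OD at an adjusted p under 0.05. Both OD samples lay above both SD samples for 27.9% of these genes and below them for 28.2%. Across genes, GC-rich transcripts had higher log2 differences (Spearman's rho 0.59, over 17536 genes that share the same 4 libraries). Each difference of the 10 genes is therefore also given with this GC trend removed. Such a removal also takes away any real difference that goes with GC content.

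Vgf and Vip have the most and the least GC-rich transcript of the 10 genes, and the parts of their coding sequence that encode the best-known peptide show the contrast. Capitals mark the codons of the peptide and lower case the flanking codons, among them those of basic residues where the precursor is cut.
Vgf, TLQP-21: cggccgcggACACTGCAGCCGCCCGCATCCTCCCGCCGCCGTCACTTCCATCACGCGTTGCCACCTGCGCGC
Vip, VIP: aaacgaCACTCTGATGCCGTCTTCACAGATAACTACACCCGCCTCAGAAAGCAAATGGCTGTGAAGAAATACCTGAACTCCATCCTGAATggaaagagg
The Vgf stretch, from codon 553 to codon 576 of 617, was 75.0% G or C, whereas the Vip stretch, from codon 124 to codon 156 of 171, was 46.5%. Over the whole coding sequence the content was 65.5% for Vgf and 48.1% for Vip. Among the transcripts of all tested genes, that of Vgf, at 64.1%, lay at percentile 99.3 of GC content and that of Vip, at 42.2%, at percentile 11.2.

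Penk is shown because a single transcript carries many copies of its product. Its 268 codons held 6 copies of the Met-enkephalin codons and 1 of the Leu-enkephalin codons. Capitals in the following lines mark the pentapeptide and lower case the codons of basic residues on either side.
Penk, Met-enkephalin, codons 98 to 106: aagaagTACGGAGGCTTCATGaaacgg
Penk, Met-enkephalin, codons 209 to 217: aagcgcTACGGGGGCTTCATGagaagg
Penk, Leu-enkephalin, codons 229 to 237: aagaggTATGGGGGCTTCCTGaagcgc
The Met-enkephalin segments encode the same pentapeptide with different codons. The 2 later segments had a GC content of 59.3%, compared with 48.1% for the first.

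Vgf, whose product is the source of TLQP-21 and other neuroendocrine peptides, differed most between the conditions among the granins and neuropeptides. The gene lies on chr5:137026392-137033351 (GRCm38, plus strand; ENSMUSG00000037428). Its adjusted count was 584 and 496 in the SD samples and 1459 and 1303 in the OD samples. The lowest OD value was thus well above the highest SD value. In bulk tissue such as this, fewer cells of a type and less RNA per cell cannot be told apart. The mean was 540 ± 62.5 in SD and 1381 ± 110 in OD (± standard deviation, n = 2 each), a 2.56-fold higher level in OD. The log2 difference was 1.36 (SE 0.10), and it ranked 13 of 17784 tested genes from the highest. When each sample was left out in turn it ranged from 1.24 to 1.47. With the GC trend removed the log2 difference was 1.19 (SE 0.084).

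Scg2, the precursor of secretoneurin, was among the most abundant of the 10 genes (chr1:79434669-79440120, minus strand; ENSMUSG00000050711). Adjusted counts were 9112 and 7415 in SD and 10394 and 10056 in OD. The conditions did not overlap, although the gap between the SD samples was wider than that between SD replicate 1 and the lower OD sample. The log2 difference was 0.31 (SE 0.098), and it was 0.39 with the GC trend removed. Without SD replicate 2 it was 0.17. Scg3, a granin that binds chromogranin A and the cholesterol-rich granule membrane, went the other way (chr9:75643189-75684056, minus strand; ENSMUSG00000032181). SD samples had adjusted counts of 4875 and 4365 and OD samples of 4471 and 4138. These values overlap between the conditions. The log2 difference of -0.10 (SE 0.076) was the lowest of the 10 genes, and it was -0.013 with the GC trend removed. It ranged from -0.18 to -0.021 when each sample was left out in turn.

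Chga encodes chromogranin A, the founding member of the family and the precursor of pancreastatin and catestatin (chr12:102554969-102565028, plus strand; ENSMUSG00000021194). Chga had adjusted counts of 5955 and 4859 in SD and 6727 and 6222 in OD. Both OD samples were above both SD samples, but the lower OD sample was close to the higher SD sample. This gives a log2 difference of 0.27 (SE 0.10), and of 0.15 with the GC trend removed. It was 0.12 without SD replicate 2. Chgb encodes chromogranin B, which is abundant in neuroendocrine granules (chr2:132781278-132795079, plus strand; ENSMUSG00000027350). For Chgb they were 12405 and 9153 in SD and 13687 and 11347 in OD. Here the conditions overlapped, since SD replicate 1 was above OD replicate 2. The log2 difference was 0.23 (SE 0.15), and it was 0.14 with the GC trend removed. Without SD replicate 2 it was 0.0066.

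Penk encodes proenkephalin, found in retina in enkephalin-containing amacrine cells (chr4:4133531-4138819, minus strand; ENSMUSG00000045573). Its adjusted count was 614 and 617 in SD and 966 and 848 in OD. The SD samples were almost equal, and both OD samples were clearly above them. The mean was 616 ± 2.16 in SD and 907 ± 83.8 in OD (± standard deviation, n = 2 each), which is 1.47-fold higher in OD. The log2 difference was 0.56 (SE 0.087) and was 0.48 with the GC trend removed. As deposited, it ranged from 0.46, without OD replicate 1, to 0.65, without OD replicate 2. An antisense gene, A830012C17Rik, shares 233 of the 1634 exonic bases of Penk, and the strand setting of the counting was not stated. A830012C17Rik itself had 2.00 and 1.14 adjusted counts in SD and 3.83 and 0 in OD.

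Tac1 encodes the precursor of substance P and neurokinin A (chr6:7554879-7565834, plus strand; ENSMUSG00000061762). In SD its adjusted count was 285 and 250, and in OD it was 275 and 287. The OD samples lay on either side of SD replicate 1, so the conditions overlapped. The log2 difference was 0.075 (SE 0.12), and it was 0.17 with the GC trend removed. It turned to -0.019 without SD replicate 2. Vip encodes vasoactive intestinal peptide, which marks a class of amacrine cells (chr10:5639218-5647617, plus strand; ENSMUSG00000019772). Vip had adjusted counts of 207 and 229 in SD and 246 and 298 in OD. The OD samples were both higher, and they differed from each other more than the SD samples did. Their log2 difference was 0.32 (SE 0.14), and it was 0.18 without OD replicate 2. Of the 10 genes, Vip moved most with GC content, to 0.62 (SE 0.13) once the trend was removed, and to 0.84 when GC content was read from its longest transcript of any type, which is a retained-intron transcript.

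Npy encodes neuropeptide Y, also made by amacrine cells (chr6:49822710-49829507, plus strand; ENSMUSG00000029819). Its adjusted count was 311 and 268 in SD and 356 and 347 in OD. Both OD samples were higher, with a log2 difference of 0.28 (SE 0.11) and of 0.20 with the GC trend removed. Without SD replicate 2 it was 0.18. Sst encodes somatostatin, an inhibitory peptide, and had the lowest level (chr16:23889573-23890958, minus strand; ENSMUSG00000004366). Sst had adjusted counts of 106 and 72.5 in SD and 99.1 and 114 in OD. The conditions overlapped and the SD samples were far apart. This leaves a log2 difference of 0.27 (SE 0.22), or 0.17 with the GC trend removed. Without SD replicate 2 it was 0.0054.

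**Figure D1:**
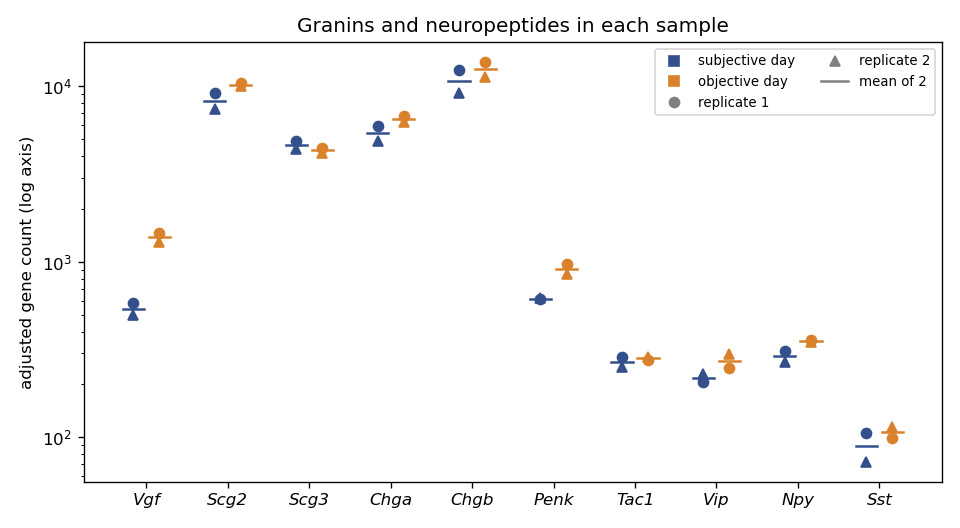
Adjusted gene count (log axis) of each of the 10 genes in the 2 SD samples (blue) and the 2 OD samples (orange), with circles for replicate 1, triangles for replicate 2 and a short line for the mean. Vgf and Penk show the widest separation of the conditions, whereas the points of Scg3, Chgb, Tac1 and Sst overlap.

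Considered together, 9 of the 10 genes had a positive log2 difference and 1, Scg3, a negative one. All 10 passed the filter on low values, and their median was 0.28, compared with 0.015 over all genes tested. For 6 of them, Vgf, Scg2, Chga, Penk, Vip and Npy, both OD samples were above both SD samples, beside 27.9% of all genes. For none were both below, beside 28.2%. In the fit over all genes, 2 of the 10 were called higher, Vgf and Penk, beside 1.06% of all genes, and 0 were called lower, beside 7.45%. No reading is drawn from these counts, since the genes were chosen from this contrast. SD replicate 2 was the lowest sample for 7 of the 10 genes and OD replicate 1 the highest for 6. The median was 0.14 without SD replicate 2, and 8 of the 10 differences were positive. Without SD replicate 1 the median was 0.43 and 5 of the 10 were called, while the calls over all genes went from 1514 to 2557. Without OD replicate 1 only Vgf of the 10 was called, and 736 of all genes. With the GC trend removed the median was 0.19 and Vgf was called. With a variance prior that does not follow the mean expression, 0 of the 10 genes, and 0 of all genes, were called by limma, although 3586 genes had an unadjusted p under 0.05.

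**Figure D2:**
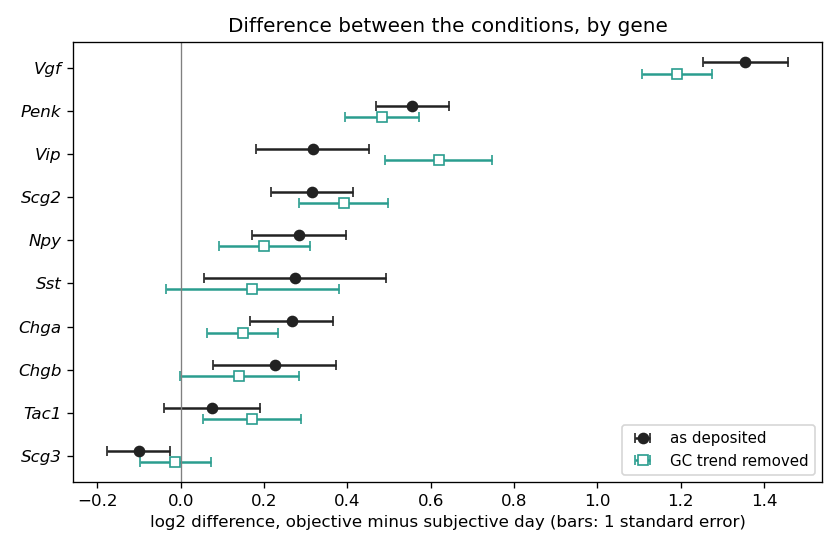
Log2 difference of OD minus SD for each gene, with bars of 1 standard error, as deposited (filled circles) and with the GC trend removed (open squares). Vgf moves down from 1.36 to 1.19 and Vip up from 0.32 to 0.62, and Scg3 is the lowest gene on both scales.

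On a scale of adjusted counts per kilobase of transcript, levels could be compared between genes. The granins other than Vgf stood at the top, and their order over the 4 samples was Chgb at 4251, Scg2 at 3676, Chga at 3155 and Scg3 at 1872. The ranges over samples of Chgb and Scg2 overlapped, as did those of Scg2 and Chga, whereas Scg3 lay apart from its neighbours on either side. Npy at 566 and Penk at 525 came next, followed by Vgf at 339, Tac1 at 223, Vip at 160 and Sst at 136. The ranges of Npy and Penk, of Penk and Vgf, of Vgf and Tac1 and of Vip and Sst overlapped. Within SD, Vgf was eighth in this order, at 190 per kilobase and just below Tac1 at 217, and their ranges overlapped. Within OD, Vgf was seventh, at 487 compared with 228 for Tac1, and these ranges were apart. Penk and Npy also changed places, with 425 and 511 in SD, where their ranges were apart, and 626 and 621 in OD, where the ranges overlapped. The places of Tac1 and Vip depend on the transcript used for length. The longest protein-coding transcript was used, of 1230 bases for Tac1 and 1530 for Vip. Their longest transcripts of any type have 1975 and 2532 bases, whereas Vgf has 2834 by either choice. Lengths of any type would put Tac1 and Vip lower, and the order was not tested with them. The 5 granins together took 0.0935% and 0.0754% of the summed counts in SD and 0.105% and 0.0994% in OD. Of this granin sum, Vgf made up 1.77% and 1.89% in SD and 3.97% and 3.94% in OD.

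**Figure D3:**
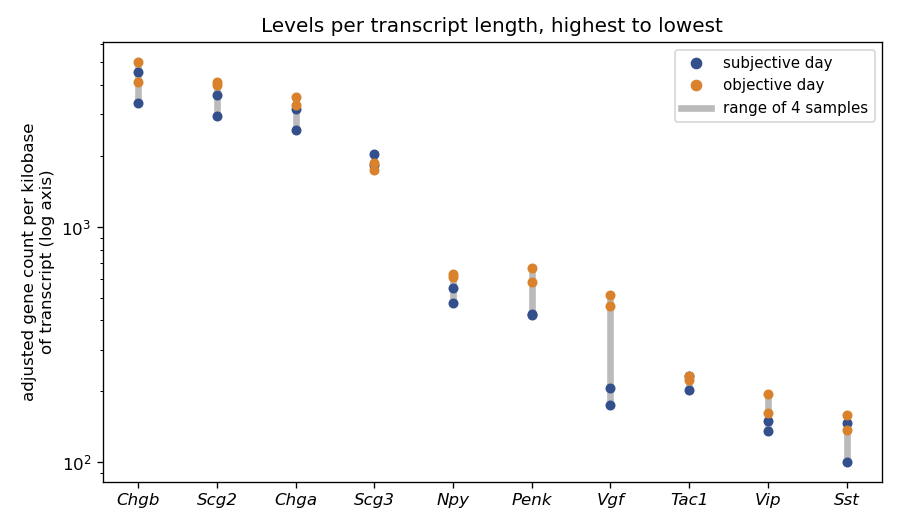
Adjusted gene count per kilobase of transcript (log axis) in the SD (blue) and OD (orange) samples, with genes ordered by the mean of 4 samples and a grey bar for their range. The 4 granins Chgb, Scg2, Chga and Scg3 lie between 1736 and 4995, and all 6 other genes lie below 667.

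Many neuropeptide and granin genes are known to carry a cyclic AMP response element (CRE), and the promoters were searched for it. RefSeq promoter windows of GRCm38.p6, from 250 bases before to 50 bases after the start, were matched for 8 of the 10 genes and not for Vgf and Penk. The full CRE, TGACGTCA, is its own reverse complement and was found on both strands in 3 of the 8, Chgb, Scg2 and Sst, compared with 1.79% of 32851 promoters. The 100 bases around it are shown for these 3, 5′ to 3′ on the strand of the gene and with the CRE in capitals.
Chgb promoter, chr2:132781524-132781623, plus strand: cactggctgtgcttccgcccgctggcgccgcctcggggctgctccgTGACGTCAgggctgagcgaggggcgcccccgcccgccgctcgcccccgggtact
Scg2 promoter, chr1:79440041-79440140, minus strand: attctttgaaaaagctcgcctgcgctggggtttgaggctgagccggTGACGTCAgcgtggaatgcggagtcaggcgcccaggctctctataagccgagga
Sst promoter, chr16:23890839-23890938, minus strand: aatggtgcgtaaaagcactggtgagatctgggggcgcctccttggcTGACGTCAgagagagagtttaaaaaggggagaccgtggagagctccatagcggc
Counted from the RefSeq start of each gene, the CRE began 72 bases before that of Chgb, 68 before that of Scg2 and 48 before that of Sst. The gene intervals given above are from GENCODE M21, whose outermost start lies further upstream, so the CRE falls inside those intervals. Of these 3 genes, only Scg2 had OD samples that were both above the SD samples. The shorter motif TGACG, searched on both strands and contained in every full CRE, was found in 7 of the 8, all but Npy, and in 20.8% of all promoters. The EGR motif GCGNGGGCG was found in 1 of the 8, Chgb, and in 5.55% of all promoters. The TATA box letters TATAAA were found in Chga and Vip and in 13.6% of all promoters. These matches describe the letters in the window and nothing about binding.

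All 15 listed genes for the enzymes and helpers that process the precursors were tested. In either direction 0 were called by limma, beside 1.06% of all genes called higher and 7.45% called lower, and the median log2 difference was 0.10. Both OD samples were above both SD samples for 7 of the 15, beside 27.9% of all genes, and below for 2, beside 28.2%. Cpe, the carboxypeptidase that trims basic residues from the cut peptides, was the most abundant, with 27727 and 25382 in SD and 25897 and 24310 in OD. Its log2 difference of -0.080 (SE 0.082) was no larger than its error. Pcsk1n, which encodes the granin-like inhibitor of prohormone convertase PCSK1, had 7926 and 6964 in SD and 9334 and 8476 in OD. These values did not overlap, and the log2 difference was 0.26 (SE 0.084, limma adjusted p = 0.108), or 0.15 with the GC trend removed. Scg5, the chaperone of prohormone convertase PCSK2, overlapped between the conditions, with a log2 difference of -0.070 (SE 0.11). This value turned positive without SD replicate 1 (0.092) and without OD replicate 2 (0.017). The log2 difference of Pcsk1n was 0.35 without SD replicate 1 and 0.17 without SD replicate 2.

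All 28 listed genes for granule formation and release were tested. In OD 1 of them rose, beside 1.06% of all genes, and 2 fell, beside 7.45%, with a median log2 difference of 0.085. Both OD samples were above both SD samples for 15 of the 28, beside 27.9% of all genes, and below for 8, beside 28.2%. Ptprn, of the receptor-type tyrosine phosphatase family by sequence and found in the dense-core granule membrane, rose from 2807 and 2604 in SD to 3487 and 3534 in OD (log2 difference 0.38, SE 0.063, limma adjusted p = 0.0146). Rab27b, a small GTPase that docks granules at the plasma membrane, fell from 650 and 657 to 419 and 442 (log2 difference -0.60, SE 0.083, limma adjusted p = 0.00763). Syt4, a synaptotagmin of dense-core granules, fell from 4278 and 4126 to 3385 and 3354 (log2 difference -0.32, SE 0.058, limma adjusted p = 0.0184). The calls for Ptprn and Syt4 were lost without OD replicate 1 and also without OD replicate 2. None of the 3 was called with the GC trend removed, where Ptprn was at 0.25 and Rab27b and Syt4 turned to 0.045 and 0.094. Ptprn shares 189 of 4249 exonic bases with the antisense gene Gm28294, and Syt4 shares 566 of 3892 with the antisense gene Gm26658. The general release genes Snap25 and Vamp2, which encode parts of the synaptic fusion machinery, were among the most abundant of the list. Snap25 had a log2 difference of -0.18 (SE 0.086) and Vamp2 of 0.12 (SE 0.097), and neither passed the threshold. With the GC trend removed the sign of Snap25 turned, to 0.043, and Vamp2 was at 0.038. As deposited, Vamp2 was at 0.20 without SD replicate 1 and at 0.028 without SD replicate 2. Snap25 was at -0.24 without OD replicate 1 and at -0.11 without OD replicate 2.

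Of 21 listed genes for receptors of these peptides, 14 passed the filter, and 0 of them were called by limma, with a median of 0.023, beside 1.06% of all genes called higher and 7.45% called lower. Both OD samples were above both SD samples for 3 of the 14, beside 27.9% of all genes, and below for 4, beside 28.2%. Vipr2, a receptor for VIP and PACAP, was the most abundant, with 1676 and 1888 in SD and 1682 and 1881 in OD. Its log2 difference was -0.00041 (SE 0.085), and the spread within each condition was far wider than the difference between them. Tacr3, the neurokinin B receptor, had 770 and 843 in SD and 612 and 667 in OD, with a log2 difference of -0.33 (SE 0.087, limma adjusted p = 0.0598), or -0.18 with the GC trend removed. Tacr1, the substance P receptor, was higher in both OD samples, with a log2 difference of 0.20 (SE 0.092, limma adjusted p = 0.229). C3ar1, the complement receptor that is also known to bind TLQP-21, had 92.9 and 54.9 in SD and 80.5 and 67.8 in OD, which overlap. It, the somatostatin receptors Sstr3 and Sstr1 and the neuropeptide Y receptor gene Npy6r are named outside the rule for named genes, after their values were seen. Sstr3 had 15.97 and 23.1 in SD and 41.6 and 42.1 in OD, a log2 difference of 1.08 (SE 0.30, limma adjusted p = 0.0694). Npy6r had 13.98 and 25.2 in SD and 5.58 and 13.5 in OD, a log2 difference of -1.02 (SE 0.52, limma adjusted p = 0.268), and Sstr1 had a log2 difference of -0.43 (SE 0.29). The log2 difference of Tacr3 was -0.40 without SD replicate 1 and -0.27 without SD replicate 2.

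Among 30 other neuropeptide precursors, 26 were listed in the table and 18 passed the filter. None of the 18 was called by limma, beside 1.06% of all genes called higher and 7.45% called lower, and the median log2 difference was 0.11. Both OD samples were above both SD samples for 4 of the 18 and below for 2, beside the same shares of all genes, 27.9% and 28.2%. Cartpt, the precursor of the CART peptides, was the most abundant, with 1900 and 1803 in SD and 1991 and 2203 in OD. Its log2 difference was 0.18 (SE 0.073, limma adjusted p = 0.18), or 0.096 with the GC trend removed. Leaving out OD replicate 2 gave 0.10, and leaving out OD replicate 1 gave 0.25. Cck, the cholecystokinin precursor, had 480 and 415 in SD and 576 and 549 in OD, with a log2 difference of 0.33 (SE 0.10, limma adjusted p = 0.0909). Nxph4, a neurexophilin, overlapped between the conditions, with a log2 difference of 0.27 (SE 0.13), or 0.13 with the GC trend removed. It was 0.12 without SD replicate 2 and 0.42 without SD replicate 1. The log2 difference of Cck was 0.44 without SD replicate 1 and 0.23 without SD replicate 2. 

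**Figure D4:**
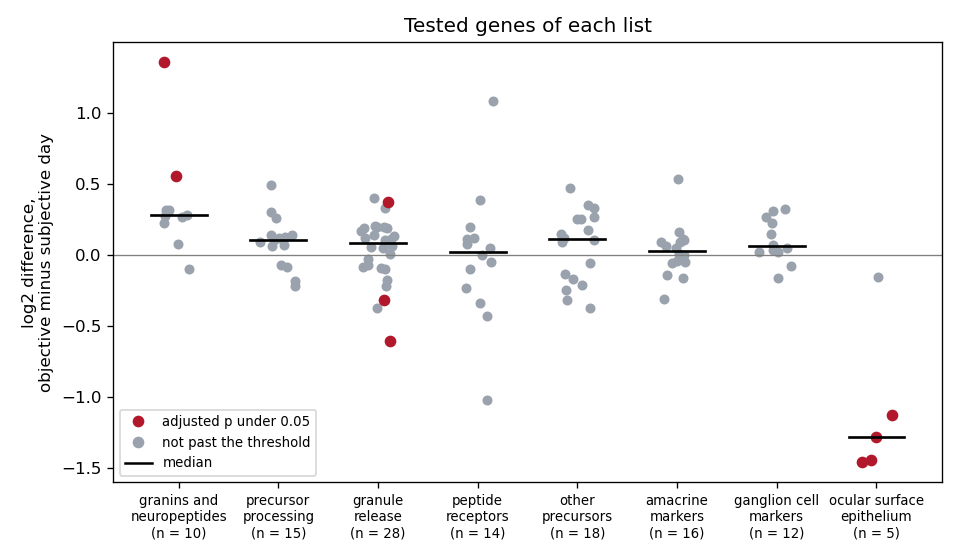
Log2 difference of OD minus SD for each tested gene of 8 lists, with red points for genes past an adjusted p of 0.05 in limma and a black line for the median of each list. The granins and neuropeptides have a median of 0.28, the 4 related lists lie between 0.023 and 0.11, and the ocular surface markers lie at -1.28.

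Markers of the cells known to make these peptides were measured beside them. The calls in these marker lists stand beside 1.06% of all genes called higher and 7.45% called lower. Of 17 amacrine cell markers 16 were tested and 0 were called by limma, with a median log2 difference of 0.029. For 6 of the 16 both OD samples were above both SD samples, beside 27.9% of all genes, and for 3 both were below, beside 28.2%. Their summed level was 58074 and 56865 in SD and 59992 and 58989 in OD. All 12 ganglion cell markers were tested and 0 were called, with a median of 0.061. For 7 of the 12 both OD samples were above both SD samples, beside 27.9% of all genes, and below for 2, beside 28.2%. The list had sums of 34503 and 29454 in SD and 36060 and 33489 in OD. SD replicate 2 was the lowest sample for this sum, as it was for the amacrine, rod and RPE sums and for 7 of the 10 granins and neuropeptides. It was not the lowest for the sums of bipolar, Muller glia, ocular surface, skeletal muscle and blood markers. Leaving it out took the median log2 difference of the 10 from 0.28 to 0.14. The cause of its low values was not tested.

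A few markers of other retinal cell types were called lower in OD, as were 7.45% of all genes. Of 10 bipolar cell markers, Cabp5 fell (log2 difference -0.31, SE 0.061), with sums over the list of 55685 and 55784 in SD and 55016 and 55415 in OD. Of 6 Muller glia markers, Slc1a3 (-0.34, SE 0.059) and Aqp4 (-0.44, SE 0.058) fell, with sums of 118740 and 109994 in SD and 110948 and 104981 in OD. Of 5 tested RPE markers, Rpe65 fell (-0.52, SE 0.11), with sums of 81485 and 67976 in SD and 79796 and 72508 in OD. The sums of glia and RPE overlap between the conditions, and the OD sums of bipolar cells were slightly lower. With the GC trend removed, limma called 0 genes of these 3 lists.

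Of 5 tested markers of ocular surface epithelium, Krt5, Krt14, Krt15 and Aldh3a1 fell, with log2 differences of -1.44, -1.28, -1.46 and -1.12. With the GC trend removed limma still called 4 of the 5 lower, beside 91 of 17536 genes. The median of the list then went from -1.28 to -1.39. Of 5 tested blood markers, beside 1.06% of all genes called higher, the haemoglobin genes Hba-a1, Hbb-bs and Hbb-bt rose by 0.67, 0.37 and 0.98 on the log2 scale. With the GC trend removed only Hba-a1 of these 3 was called. The list summed to 3054 and 3161 in SD and to 4301 and 4574 in OD. Of 8 rod markers 0 were called, with a median of 0.16, and of 6 skeletal muscle markers 0 were called, with a median of -0.061, beside the same 1.06% and 7.45% of all genes. The part of these tissue differences in the values of the 10 genes was not tested.

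The genes whose profile over the 4 samples was nearest to that of Vgf were E030010N08Rik, Fam167b, Fcamr, Etv4 and 0610039K10Rik, at a Euclidean distance of 0.331 to 0.357 between centred log2 values. Etv4, which encodes an ETS transcription factor, was the most abundant of these, with 182 and 157 in SD and 339 and 365 in OD. Fam167b had 31.0 and 20.2 in SD and 56.7 and 55.4 in OD, and Fcamr, an Fc receptor for IgA and IgM, had 33.0 and 32.2 in SD and 71.0 and 65.0 in OD. E030010N08Rik and 0610039K10Rik had values of 3.99 to 6.64 in SD and of 10.4 to 20.1 in OD. They thus passed the filter only through their OD samples. With only 4 samples, this likeness says little beyond a higher value of similar size in both OD samples.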

How the data were processed

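RNA-seq of 4 samples, 2 of subjective day and 2 of objective day, was grouped by the sample labels. According to the Methods and the submitters' notes, the authors aligned reads with TopHat2 2.0.9 and Bowtie2 2.1.0, counted genes with HTSeq and compared conditions with edgeR. The strand setting is not given in the sources used here. The unit of the deposited table is a signal: counts per gene that had been scaled to equal library sizes and so carry decimals. This form was inferred from the values, and no count test was used. The deposited table also holds log2 fold changes, log2 CPM, p-values and FDR values of the authors' comparison, which were not used.

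Genes that reached 10 in 2 or more samples (17784 of 22863) were fitted with limma 3.58.1 (R 4.3.3) on log2(value + 1), with variances following the mean and Benjamini-Hochberg adjustment over all of them at 0.05. Differences understate those of low genes. Transcript length and GC content came from the longest protein-coding transcript in GENCODE M21 (GRCm38), coding sequences from the longest open reading frame of its protein-coding transcripts, positions and exonic bases from all transcripts of the gene, and GC content was known for 98.6% of tested genes. The trend was removed in each sample by local regression with a span of 0.3. No single-gene permutation test was used, since 2 against 2 samples cannot go below an exact permutation p of 0.333.

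The members and the lists were chosen with earlier results of these data known. Genes named are the 10 members, called genes of each list (up to 4 each way in pathway lists, up to 3 each way in marker lists), the 3 most abundant genes of each pathway list, the most abundant of each marker list, and the 5 nearest to Vgf; some genes that this rule selects are not reported here. Alternatives covered the scaling, filter, pseudocount, variance prior, GC trend, replicate number and each sample left out. GC content from transcripts of any type was added after seeing the data.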

Additional observations from a re-analysis of the deposited data

How the results depend on the processing

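Of the 10 genes, only Tac1 changed the sign of its log2 difference under the alternatives tried, to -0.019 without SD replicate 2. The 10 genes were chosen from this contrast, so calls among them are counts only and say nothing of their stability. With the variance prior without a trend, limma called 0 of all genes, 0 of the 10 genes described and 0 of the granule list, with 3586 genes at an unadjusted p under 0.05. With the GC trend removed, 156 genes were called in all compared with 1514, 1 of the 10, Vgf, and 0 of the granule list. GC content from transcripts of any type, an alternative chosen after seeing the data, gave 211 calls in all, 0 of the granule list, and 2 of the 10, Vgf and Vip. Rab27b turned to 0.045, Syt4 to 0.094 and Snap25 to 0.043 with the GC trend removed, with or without the replicate block, and Syt4 to 0.058 and Snap25 to 0.34 with transcripts of any type. With samples scaled to amacrine markers, 1 receptor, Tacr3, was called.

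The labels number the samples 1 and 2 in each condition without saying that a number marks anything shared, and deviations of same-numbered samples correlated at 0.32. With the replicate number as a block, 3613 genes were called in all, 1282 higher and 2331 lower, and 5 of the 10, namely Vgf, Scg2, Chga, Chgb and Penk. The block gave 3 calls in precursor processing, 11 in granule release, 2 in receptors and 2 in other precursors. With the block and the GC trend removed together, 4 of the 10 were called, Vgf, Scg2, Penk and Vip, and 2 of precursor processing.

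When single samples were left out, the lone sample being assumed to vary like the others, the number called ranged from 664 to 2557 in all, from 1 to 5 of the 10, from 0 to 3 in precursor processing, from 1 to 5 in granule release, from 0 to 1 in receptors and from 0 to 2 in other precursors. The median of the 10 ranged from 0.14 to 0.43. The highest counts in all and among the 10 came without SD replicate 1. Scg5 turned to 0.092 and 0.017 without SD replicate 1 and OD replicate 2, from a lowest value of -0.23, and Vipr2 to 0.085 and 0.080 without SD replicate 2 and OD replicate 1, from a lowest value of -0.086. The causes of these changes were not tested. The adjusted values do not give the depth, and the number of samples limits the precision of each gene.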
